A study of Mus musculus with 117 samples.

Results

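The data describe the submandibular gland of 10 female mice of 15 weeks, 5 B6-scid animals (strain B6.CB17-Prkdc scid/SzJ) and 5 NOD-scid animals (strain NOD.CB17-Prkdc scid/J). They were chosen by the age and gland given in the sample titles, and make up 10 of the 39 gland samples and 30 of the 117 arrays of the series. Every one of the 36899 probe sets on 3 Affymetrix MG-U74 version 2 designs, A, B and C, was in scope. The study read pancreas, submandibular gland and lacrimal gland of these strains, each gland from an individual mouse, and asks how exocrine glands of the autoimmunity-prone NOD background differ from those of C57BL/6. Both strains carry the scid mutation of Prkdc, a DNA repair kinase needed to assemble antigen receptors, so neither has mature T and B cells. No group of the series had an intact immune system. Per the labels, the gland was freed of the sublingual gland and of connective and fat tissue before RNA was made. For comparison, 5 mice per strain gave submandibular gland at 9 weeks, and 5 B6-scid and 4 NOD-scid mice gave lacrimal gland at 15 weeks.

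The submandibular gland makes watery and mucous saliva in its acini, which secrete mucins, peroxidase and other proteins and move chloride, potassium and water. In rodents the saliva then passes granular and striated ducts, which add kallikreins and growth factors and reclaim salt. NOD mice develop inflammation of salivary and lacrimal glands and are used as a model of Sjögren's syndrome. The scid mutation allows their glands to be read without mature T and B cells.

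Values are MAS5 signals brought to a common trimmed mean of 500 on every array and given per mouse in the order of the mouse numbers in the labels. A difference is NOD-scid minus B6-scid on the log2(signal + 32) scale, which understates the change of weak signals, and a probe set is called when its adjusted p from limma is under 0.05. On each design, 65.2% to 76.9% of the probe sets of these 30 arrays reached a scaled signal of 100. Arrays of 1 group correlated with a mean of 0.949 (B6-scid) and 0.943 (NOD-scid) on design A, and 0.842 to 0.867 on B and C. The 3' to 5' signal ratio of Actb, a measure of RNA integrity, was 1.68 ± 0.213 (SD, n = 5) in B6-scid and 1.7 ± 0.151 in NOD-scid. The label of the gland was checked on its acinar markers: Prol1, Smgc, Pip, Aqp5, Slc12a2 and Lpo were far above 100 in all 10 mice, and none of the 9 markers tested was called. The acinar transcripts Smr2 and Smr3a were near 100 in both strains, with means of 127 and 138 in B6-scid and 119.6 and 147 in NOD-scid. In lacrimal gland, Smgc had means of 138 in B6-scid and 290.2 in NOD-scid. Prol1, Pip, Aqp5, Slc12a2 and Lpo had means of 2249 or more there, so being above 100 does not tell the glands apart by these markers. Smgc also entered the list of sublingual mucous markers, which summed to 20307 to 102198 in B6-scid and 24203 to 67564 in NOD-scid. The check therefore does not tell submandibular from sublingual gland. None of the 3 tested genes of that list was called. Some mice stood apart on single groups of transcripts. B6-scid mice 1 and 3 had Bpifa2, a parotid-type saliva protein, at 15142 and 20018, against 1279 to 1708 in the other B6-scid mice and 808 to 2131 in NOD-scid. NOD-scid mouse 1 carried pancreatic digestive enzyme transcripts, with Cela1 at 1146 and Prss2 at 1990, and the 7 pancreas markers summed to 2605 to 3429 in B6-scid and 3375 to 10432 in NOD-scid, whose highest mouse it was. B6-scid mouse 2 and NOD-scid mouse 5 had low Smgc, at 16149.8 and 20306, where the others had 52049 or more.

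The strains differed in a small share of the transcripts measured. Of 32136 probe sets that passed the filter on low signals, 191 were called (0.594%), 72 higher in NOD-scid (0.224%) and 119 lower (0.37%). The difference reached 2-fold in 168 of the 191, and its median size was 1.67 on the log2 scale. The 5 NOD-scid mice did not overlap the 5 B6-scid mice in 182 of the 191, whereas 2.83% of all tested probe sets were free of overlap. Some calls had a mean under the filter value of 100 in the lower strain. These were 20 of the 72 higher calls, in B6-scid, and 26 of the 119 lower calls, in NOD-scid. The share of all tested probe sets with such a mean was not computed, so these counts do not set the calls apart. Design A, which holds the best-known genes, gave 117 calls of 9787 tested (1.2%), design B 48 of 11565 (0.415%) and design C 26 of 10784 (0.241%). The calls named 140 genes through 147 probe sets with 1 gene symbol, while 10 probe sets had several symbols and 34 had none.

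Most called differences rested on 1 probe set of the gene. Of the 140 genes, 78 had at least 1 other tested probe set, 145 in all, and 90 of those 145 had a difference of the same sign. Only 6 of the 145, from 5 genes, were called in the same direction. Those genes were Gcnt1, Abhd1, Ctsc, Apobec3 and Tgoln1. Among the 145, 38 were at least as bright in their brighter strain as the called probe set, and 21 of these 38 differed by less than 0.5 on the log2 scale. Rpgrip1 gives an example, since its called probe set differed by -3.37 and its 3 others by 0.42 to 0.78. AI506816 had 1 probe set called lower (-1.91) and 1 called higher (2.04). Probe sets of a gene read different stretches of its transcripts, and some, with an _f, _s, _i or _r in their name, can bind related transcripts or were chosen under relaxed rules. Which stretch each one reads, and whether the strains differ in sequence there, was not examined. A call below is therefore a difference in signal at the named probe set.

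**Figure D1:**
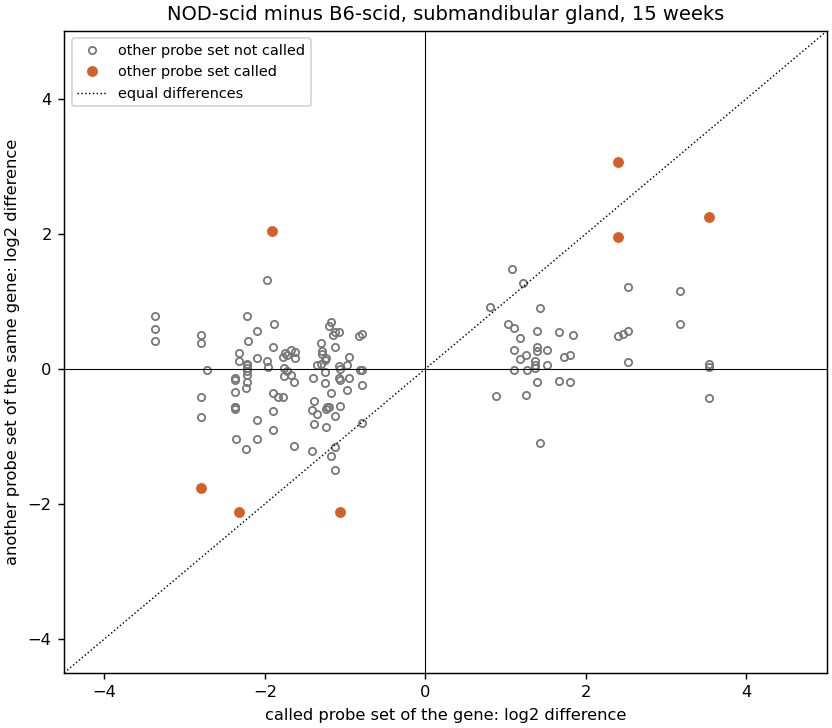
Log2 difference (NOD-scid minus B6-scid, 15 weeks) of the called probe set with the smallest p of each of 78 genes (x axis) against that of each of the 145 other tested probe sets of the same gene (y axis). Filled points mark the 7 other probe sets that were called, 6 of them in the same direction, and most open points lie nearer to 0 than the dotted line of equal differences.

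Mucl1, St6galnac1 and Gcnt1, which serve mucin-type glycoproteins, were among the largest increases in NOD-scid. Mucl1, which encodes a small mucin-like secreted protein, read 1353, 936, 369, 389 and 300.2 in the B6-scid mice and 59741, 54951, 52579, 50766 and 50309.8 in the NOD-scid mice. The groups were far apart, with the lowest NOD-scid mouse above the highest B6-scid mouse by more than an order of magnitude, and the difference was 6.49 ± 0.35 (SE), adjusted p 4.2e-10. In a bulk gland, fewer cells of a type and less RNA per cell cannot be told apart, here and in every result below.

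St6galnac1, a sialyltransferase that caps the first sugar of mucin chains, read 80.8, 39.2, 50.3, 27.3 and 14.9 in B6-scid and 1152, 1009, 1968, 1370.1 and 1851 in NOD-scid. All B6-scid mice were under the filter value of 100 and all NOD-scid mice above 1000, a difference of 4.35 ± 0.24 (SE), adjusted p 4.8e-10. Gcnt1, which starts the core 2 branch of these chains, was called on 3 probe sets, 112807_at, 92655_at and 162936_at, with differences of 3.07, 2.40 and 1.95. On the first, B6-scid mice read 216, 309.6, 269.6, 187 and 226 and NOD-scid mice 1755, 1922, 3576, 2611 and 1767. No mouse overlapped the other strain on any of the 3. The call of the last of these 3 was lost in 1 fit of all 39 samples (adjusted p 0.0951). A further tested probe set of Gcnt1 differed by 0.49 and was not called.

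Another 3 genes of the same pathway were called. St6galnac2, a second sialyltransferase of mucin chains, rose from a range of 195 to 446 in B6-scid to one of 813 to 1589.5 in NOD-scid (1.75 ± 0.26 (SE), adjusted p 9.2e-04). Slc35a1, the Golgi carrier of activated sialic acid, was higher at 915 ± 104 (SD, n = 5) against 515 ± 60.8, and was picked after its value was seen. St3gal4, which links sialic acid to galactose, went the other way, from a range of 6219.9 to 10382 to one of 3569 to 4716 (-0.98 ± 0.18 (SE), adjusted p 0.00875), a call that was lost in 1 fit of all 39 samples (0.218). Of 30 tested genes in the list of mucin-type sugar enzymes, which does not hold Slc35a1, 4 were called (0.732% of all genes tested), 3 higher (0.257%) and 1 lower (0.474%), and the median difference was 0.17 against 0.02 over all 14762 genes tested. The median of the list was 0.08 without NOD-scid mouse 1 and 0.25 without B6-scid mouse 1. The list was chosen with earlier results of these data known, so its share of calls is no separate support. The 26 others were not called, among them the enzymes that attach the first sugar, Galnt1 (0.54), Galnt2 (0.25) and Galnt3 (-0.24), and C1galt1, which builds the core 1 chain (-0.48).

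**Figure D2:**
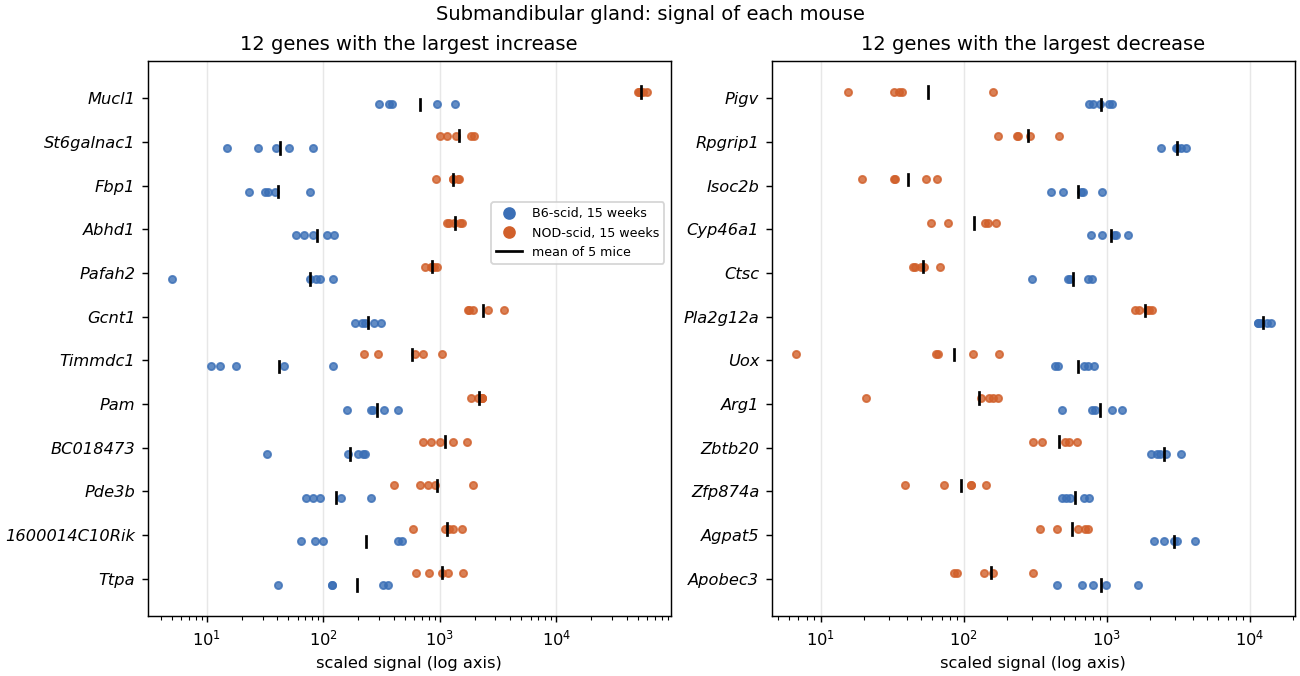
Scaled signal of each mouse (x axis, log scale) for the 12 genes with the largest increases and the 12 with the largest decreases among called probe sets whose mice did not overlap. Each gene has a row of 5 B6-scid mice (blue) and a row of 5 NOD-scid mice (orange), with the mean as a black bar. The strains are separate in all 24 genes by the rule that chose them, narrowly in 1600014C10Rik and Apobec3 and widest in Mucl1.

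Fbp1, Pam, Pafah2, Abhd1, Pde3b and Ttpa were also among the 12 largest increases. Fbp1, the gluconeogenic fructose-bisphosphatase, read 33.3, 38.7, 23.1, 76.9 and 31.7 in B6-scid and 1425, 928, 1298, 1456 and 1308 in NOD-scid. No B6-scid mouse reached 100 and no NOD-scid mouse was below 900, and the difference was 4.20 ± 0.21 (SE), adjusted p 1.3e-10. Pam, which amidates the ends of peptide hormones, read 266, 328, 158, 254 and 437 and 2298, 1865, 2307, 2313 and 2112, a difference of 2.84 ± 0.33 (SE) with adjusted p 5.1e-05.

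Pafah2, which cleaves oxidised phospholipids and platelet-activating factor, rose from a range of 4.98 to 119.7 to one of 751 to 952 (3.17). The other tested probe set of Pafah2 differed by 0.66 and was not called. Abhd1, a hydrolase-fold protein, was called on 2 probe sets, by 3.54 and 2.25. On the first, the mice read 58.4 to 124 in B6-scid and 1152 to 1543 in NOD-scid. The remaining tested probe sets of Abhd1 differed by -0.43, 0.07 and 0.03 and were not called. Pde3b, the phosphodiesterase through which insulin restrains lipolysis, rose from a range of 71.4 to 257 to one of 406 to 1925 (2.52). Its other tested probe sets differed by 0.56, 1.21 and 0.10 and were not called. Ttpa, the carrier of vitamin E, rose from a range of 40.7 to 358 to one of 629 to 1594 (2.46). The rest of the 12 were Timmdc1, an assembly factor of respiratory complex I (3.04), BC018473 (2.60) and 1600014C10Rik (2.46). The other tested probe set of 1600014C10Rik differed by 0.51 and was not called.

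Other called genes were picked here for their known roles after their values were seen. Lpl, which frees fatty acids from blood lipoproteins, read 203, 236, 165, 242 and 139 in B6-scid and 640.4, 505, 453, 433 and 453 in NOD-scid without overlap (1.22 ± 0.19 (SE), adjusted p 0.00168). Beside it, all 5 fat cell markers had positive differences with none called. Their summed signal was 2308 to 3382 in B6-scid and 3182 to 4685 in NOD-scid. Most of that sum was the 1 marker Lep, with means of 2336 in B6-scid and 3247 in NOD-scid. Of the 5 marker means, 2 were under 100 in B6-scid and 1 in NOD-scid. The part of fat cells in the Lpl difference was not tested. Slc2a5, the fructose carrier (1.51), Phyh, which starts the breakdown of branched fatty acids (1.30), Vnn1, which splits pantetheine (1.08), and Sphk1, which makes sphingosine phosphate (1.84), were higher. So was Nnt, the mitochondrial enzyme that makes NADPH, at 999.8 ± 183 against 408 ± 108 (SD, n = 5 each). Nnt is a known strain marker, since C57BL/6J mice carry a deletion in it. The other tested probe sets of Slc2a5 (0.06 and 0.28), Vnn1 (1.48) and Sphk1 (0.50) were not called.

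The largest difference in each direction was at a probe set without a gene symbol. Probe set 98480_s_at read 121, 6.72, 138, 94.1 and 231 in B6-scid and 56195, 54779.5, 46738, 60817 and 44053 in NOD-scid, a difference of 8.68 ± 0.38 (SE). Probe set 134759_at went the other way, from a range of 35142 to 55507 in B6-scid to one of 683 to 1302 in NOD-scid (-5.52 ± 0.34 (SE)). Probe sets 97282_at (4.68) and 161269_i_at (4.17) were higher and 132436_f_at (-3.57) was lower. The annotation used here gives no gene for these 5.

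Pla2g12a, Uox and Arg1 were among the 12 largest decreases. Pla2g12a, a secreted phospholipase A2, read 11328, 12033, 11312, 13194 and 13998 in B6-scid and 1983, 1917, 1689.8, 2078 and 1578 in NOD-scid. Both groups were tight and far apart (-2.72 ± 0.17 (SE), adjusted p 2.9e-09), although the probe set belongs to a sequence family by its name. The other tested probe set of Pla2g12a, with means of 784.8 and 776.6, differed by -0.02 and was not called. Uox, which oxidises urate to allantoin, read 690.2, 736, 819, 453 and 432 and 63.6, 6.7, 65.6, 117 and 177 (-2.64 ± 0.35 (SE), adjusted p 2.9e-04). Arg1, the arginase of the urea cycle and of some macrophages, read 484, 793, 1087, 1273 and 821 and 151, 133, 175, 159 and 20.8 (-2.61 ± 0.35 (SE), adjusted p 3.1e-04), with NOD-scid mouse 5 well under the other 4. Uox and Arg1 were the 2 called genes of 24 tested in the list of arginine, urea and urate genes, whose median was 0.03.

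Agpat5, Cyp46a1 and Pigv were also among the 12. Agpat5, which builds phosphatidic acid, fell from a range of 2127 to 4107 to one of 339 to 743 (-2.32). Its 2 other tested probe sets differed by 0.23 and 0.11 and were not called. Cyp46a1, which hydroxylates cholesterol, fell from a range of 771 to 1405 to one of 58.8 to 167 (-2.91). Insig1, which holds the sterol sensor in the endoplasmic reticulum, was called as well, outside the 12, at 401 ± 206 against 1777 ± 424 (-2.16). Pigv, which adds a mannose to the anchor of GPI-linked proteins, read 752, 805, 890.2, 1039 and 1084 in B6-scid and 32.7, 37.2, 161, 35.3 and 15.5 in NOD-scid (-3.60 ± 0.43 (SE), adjusted p 4.7e-05). NOD-scid mouse 3, at 161, was above the other NOD-scid mice and below every B6-scid mouse.

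The remaining 6 were Rpgrip1, a protein of the photoreceptor cilium (-3.37), Isoc2b (-3.17), Ctsc (-2.80), Zbtb20 (-2.37), Zfp874a (-2.36) and Apobec3 (-2.32). Zbtb20 and Zfp874a encode zinc finger proteins. Apobec3, a cytidine deaminase that restricts retroviruses, was lower on 2 probe sets, with 1652, 798, 985, 673 and 448 in B6-scid and 303, 161, 85.5, 139 and 89.2 in NOD-scid on the first and a difference of -2.12 on the second. Ctsc, the protease that activates granule proteases of leukocytes, was also lower on 2, from a range of 298 to 782 to one of 44.3 to 68.4 on the first and from a range of 156 to 417 to one of 30.8 to 140.2 on the second, while its 4 other tested probe sets differed by -0.71 to 0.50 and were not called. For Zbtb20, all 6 other tested probe sets had much smaller negative differences, of -0.59 to -0.13, and none was called.

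Read by gene lists, calls were few in every list. Of the 14762 genes tested with 1 probe set each, 38 were higher (0.257%) and 70 lower (0.474%), and 3.38% had no overlap between strains. The most calls in any of the 33 lists was 4 of 30, in the mucin-type sugar enzymes. The lists and their members were chosen with earlier results of these data known. A share of calls or a median in any list is therefore a description and no separate support for its pathway. No member was called in the lists of oxidative phosphorylation (0 of 55, median -0.08), extracellular matrix (0 of 46, 0.14), fatty acid and cholesterol genes (0 of 37, -0.04), protein folding in the endoplasmic reticulum (0 of 30, 0.03) or apoptosis and proteases (0 of 24, -0.02). A list can lack calls while a called gene of the same function lies outside it, as with Insig1.

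Other cell types and functions had few calls. None of the tested genes was called in duct epithelium (0 of 22, median -0.02), myoepithelium and smooth muscle (0 of 8, -0.08), endothelium (0 of 16, -0.05), MHC class I presentation (0 of 19, 0.09), chemokines and cytokines (0 of 23, 0.01), complement and coagulation inhibitors (0 of 16, -0.02, with 1 probe set per gene) or T, B and NK cells (0 of 16, 0.08). Proliferation genes (0 of 21, 16 of them above 0, median 0.22) and neutrophil and mast cell genes (0 of 13, 10 above 0, 0.33) also had no call. The pancreatic digestive enzymes had 20 of 21 values above 0 with no call and a median of 0.44, which was 0.26 without NOD-scid mouse 1. A single call was made in androgen and steroid handling (Cyp2f2, -1.50 ± 0.25 (SE), 1 of 14 with a median of -0.23), in the retrovirus list (Apobec3, 1 of 12, -0.25), in peptide processing (Pam, 1 of 12, 0.29) and among immediate early genes (Gadd45b, 1.27 ± 0.29 (SE), adjusted p 0.0419, 1 of 21, 0.11). The call of Gadd45b was lost with any of 14 mice left out, at up to 0.13 without NOD-scid mouse 5, after quantile normalization (0.0531), with a variance trend (0.0595), with 1 variance prior (0.0683) and without the 9-week samples of highest Actb ratio (0.0501). On the other tested probe set of Gadd45b the difference was -0.02 and was not called. The adipocyte list had 1 call of 17, Lpl, with a median of 0.15. The oxidant defence list had 3 of 45, with a median of -0.07. The check genes for the strains gave 2 calls of 11, Nnt and Fcgr1, with a median of 0.08. Leaving out 1 mouse moved several of these medians: proliferation was 0.15 to 0.34, neutrophil and mast cells 0.20 to 0.35, the adipocyte list 0.12 to 0.31, peptide processing 0.12 to 0.37, the strain check genes 0.07 to 0.46 and androgen handling -0.22 to -0.04.

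**Figure D3:**
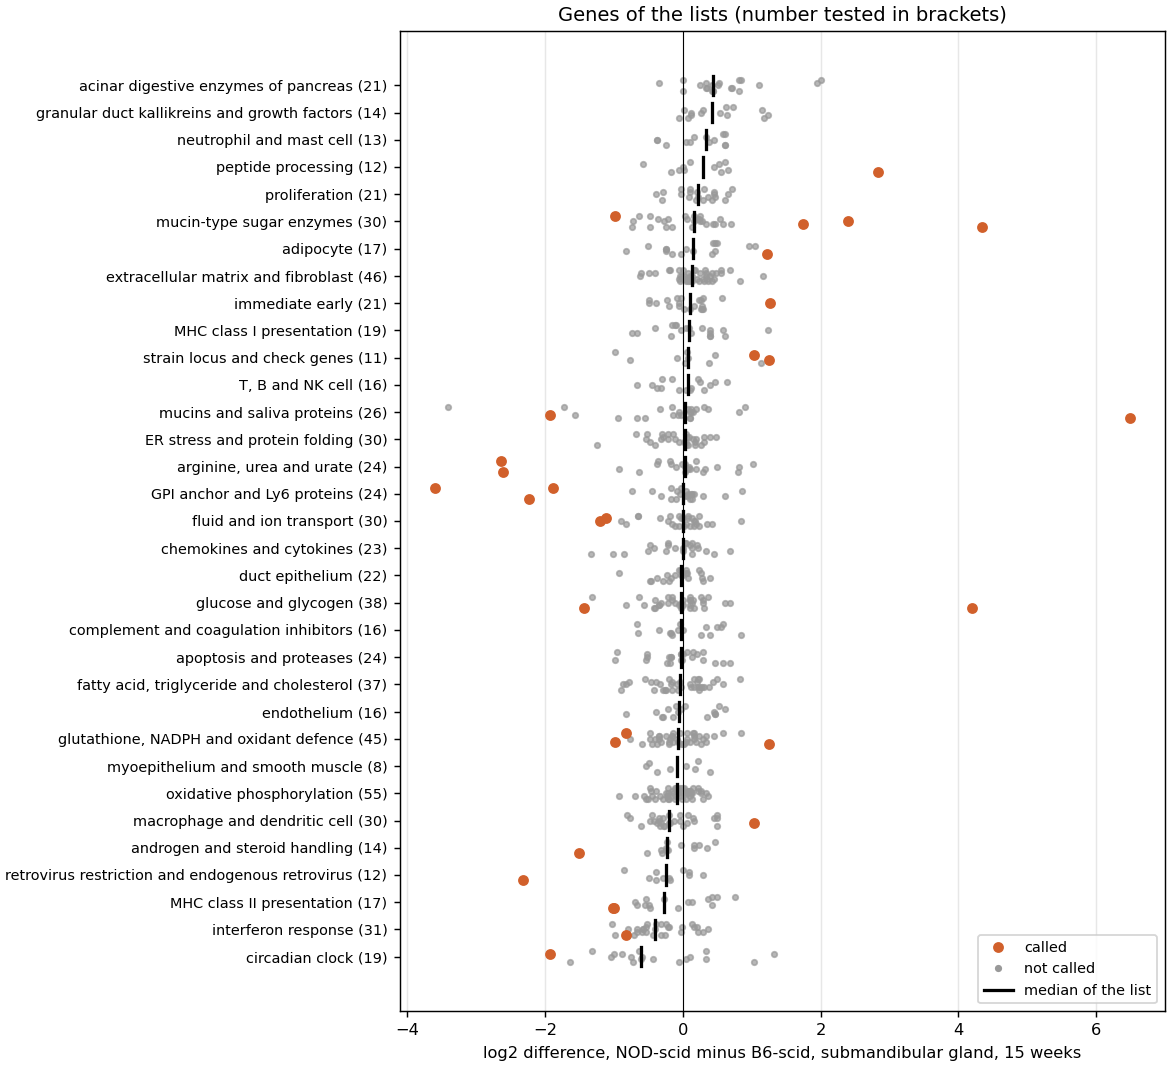
Log2 difference at 15 weeks (x axis) of each tested gene of 33 lists (y axis, number tested in brackets), with called genes in orange and the median of each list as a black bar. Medians run from -0.60 (circadian clock) to 0.44 (pancreatic digestive enzymes), and St6galnac1, Fbp1, Uox and Arg1 are the outermost points of the mucin-type sugar, glucose and arginine lists.

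Few secreted saliva proteins were called. Of 26 tested, Mucl1 was higher and Agr2, which folds mucins in the endoplasmic reticulum, was lower, and the median was 0.03. Agr2 read 284, 454, 359, 543 and 409 in B6-scid and 131, 34.8, 75.3, 93.2 and 97.1 in NOD-scid (-1.93 ± 0.37 (SE), adjusted p 0.00941). The acinar products Prol1 (0.12 ± 0.23 (SE)), Pip (0.15 ± 0.18 (SE)), Car6 (0.12 ± 0.23 (SE)) and Lpo, the salivary peroxidase (0.31 ± 0.21 (SE)), were not called and overlapped between strains.

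Some saliva proteins had a few mice far above the rest of their strain. Obp1a, an odorant-binding lipocalin, read 13136, 574, 147, 141 and 409 in B6-scid and 14.9, 6.2, 4.5, 28.6 and 169 in NOD-scid, so 1 B6-scid mouse carried most of its signal. Its fitted difference of -3.41 was not called (adjusted p 0.204). Bpifa2 followed B6-scid mice 1 and 3 (-1.72, adjusted p 0.58). Bpifb2, of the same protein family as Bpifa2, was 1359 to 2394 in B6-scid and 371 to 899.8 in NOD-scid without overlap. Its adjusted p of 0.0596 in limma missed the threshold. Bpifb2 is also in the list of sublingual mucous markers.

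Granular duct kallikreins and growth factors leaned upward in NOD-scid, with no call at 1 probe set per gene. Of 14 tested kallikreins and growth factors, 13 had positive differences, against 52.3% of all genes, and the median was 0.42. Several of their probe sets, such as those of Klk1, Klk1b22 and Klk1b9, carry an _f in their name and can bind related transcripts. The 14 values may therefore not be separate readings. The median fell to 0.28 without B6-scid mouse 1 and to 0.27 after quantile normalization. A second list, of granular and striated duct markers, shares Klk1, Klk1b22 and Egf with it. That list had 4 of 7 differences above 0 and a median of 0.06, with Krt7 (-0.48), Kcnma1 (-0.65) and Scnn1a (-0.65) below 0. Egf read 4239.8, 11938, 20116, 17088 and 28081 in B6-scid and 41988, 34552, 32922, 44607 and 16857 in NOD-scid (1.24 ± 0.39 (SE), adjusted p 0.288). Klk1b11 read 5129.6, 12144, 24097, 17860.4 and 32970.2 and 38824, 38446, 35537, 49932 and 20209.6 (1.18 ± 0.42 (SE), adjusted p 0.399). In both genes B6-scid mouse 1 was the lowest and mouse 5 the highest of its strain, and NOD-scid mouse 5 was the lowest of its own. The same mice held the same places for Klk1b8 on probe set 104496_i_at, which was called (3.17 ± 0.69 (SE), adjusted p 0.0309) although the strains overlapped. That call was lost without the 9-week samples of highest Actb ratio (0.0627), with any of 6 mice of 15 weeks left out, the highest adjusted p being 0.101 without NOD-scid mouse 4, and in a fit of the 10 mice of 15 weeks alone (0.147). The other probe set of Klk1b8, which is named for a sequence family, was not called (1.15), and neither was Klk1 (0.08 ± 0.21 (SE)).

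Genes of ion transport and salt handling included 2 decreases. Kcnn4, the calcium-activated potassium channel of acinar cells, read 7697, 5692, 5880.2, 5513 and 5941 in B6-scid and 1867, 3499, 3141, 3203 and 2539 in NOD-scid. The highest NOD-scid mouse was well under the lowest B6-scid mouse (-1.12 ± 0.17 (SE), adjusted p 9.2e-04). The other tested probe set of Kcnn4 differed by -0.70 and was not called. Fxyd3, which modulates sodium pump activity, read 10521, 10768, 11347, 12428 and 9323 and 3261, 4414, 5517, 5449 and 5196 (-1.20 ± 0.24 (SE), adjusted p 0.0178), a call lost with any of 4 mice of 15 weeks left out (up to 0.0703 without NOD-scid mouse 1). P2rx4, an ATP-gated cation channel that was picked after its value was seen, was lower at 1873 ± 123 against 3101 ± 336 (SD, n = 5 each). These were 2 of 30 tested genes in the list, which does not hold P2rx4 and had a median of 0.01. The water channel Aqp5 read 3019.8 to 5128 in B6-scid and 2952 to 4919 in NOD-scid (0.02 ± 0.23 (SE)), and the chloride uptake carrier Slc12a2 differed by -0.00 ± 0.20 (SE).

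Cd74, Ctss and Ifih1, genes of antigen presentation and virus sensing, were lower in NOD-scid. Cd74, the invariant chain of MHC class II, read 3046, 3894, 3774, 3562 and 3166 in B6-scid and 1336, 1985, 1722, 1875 and 1734 in NOD-scid without overlap, means of 3489 ± 371 and 1730.3 ± 245 (SD, n = 5 each), adjusted p 0.0309 in limma. Ctss, the protease that trims it, read 1425, 2359, 1647, 2248 and 1312 and 924, 945, 755, 839.9 and 811 (-1.01 ± 0.21 (SE), adjusted p 0.0269). These were the 2 calls among 17 MHC class II genes, with a median of -0.27, which was -0.50 without B6-scid mouse 5 and -0.13 without B6-scid mouse 1 or NOD-scid mouse 4. The 19 MHC class I genes had no call, and 11 of them were above 0. Of the class II chains, H2-Aa (-0.49) and H2-Eb1 (-0.54) had lower values in every NOD-scid mouse and were not called, H2-Ab1 overlapped (-0.69), and so did the transactivator Ciita (0.14).

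Both class II calls sat near the threshold. The call of Cd74 was lost with any of 8 of the mice of 15 weeks left out and that of Ctss with any of 7, at adjusted p up to 0.105 without NOD-scid mouse 1 and 0.101 without B6-scid mouse 2. With 1 variance prior over the 3 designs both calls were lost (0.0648 and 0.0565). The 7 macrophage markers summed to 4646 to 5782 in B6-scid and 4334 to 5648 in NOD-scid, all with means above 100, so the sums overlapped. None of the 7 was called, 2 of the 7 differences were positive and their median was -0.27. The 9 T and B cell markers summed to 1808 to 2689.6 and 1719.7 to 2557, with 2 means under 100 in each strain. C1qb, a complement gene of macrophages, was called lower on 1 probe set (-1.15) and read 397 to 716 and 518 to 936 on another, with a difference of 0.50 that was not called. The first call was lost with any of 4 mice left out (up to 0.0588 without B6-scid mouse 2) and in a fit of the 10 mice alone (0.0653).

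Ifih1, the sensor of viral double-stranded RNA, read 759, 981, 774, 1059 and 1118 in B6-scid and 539.8, 530.0, 494, 514 and 454 in NOD-scid (-0.83 ± 0.18 (SE), adjusted p 0.0256). It was the 1 call of 31 interferon response genes, of which 25 had differences of 0 or below (47.7% of all genes were below 0), with a median of -0.40. The median stayed between -0.49 and -0.31 with any 1 mouse left out. On the other tested probe set of Ifih1 the difference was 0.48 and was not called. Ifitm3, which blocks virus entry (-0.67, 2341 to 3420.2 in B6-scid and 1307 to 2027 in NOD-scid), and the interferon-induced GTPase Iigp1 (-0.98) did not overlap and were not called. The call of Ifih1 was lost with 7 mice left out in turn (up to 0.0879), in 1 fit of all samples (0.416) and with 1 variance prior over the designs (0.068). Fcgr1, the high-affinity IgG receptor, rose from a range of 203 to 324 to one of 489.8 to 643 (1.03 ± 0.19 (SE), adjusted p 0.00903) and was the 1 call of 30 macrophage and dendritic cell genes with 1 probe set per gene. Over all 50 tested probe sets of those genes, 1 was called higher and 3 lower. The 3 lower were the 2 of Ctsc and the 1 of C1qb. The other tested probe set of Fcgr1 differed by 0.67 and was not called.

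Ly6e and Ly6d, cell surface proteins of the Ly6 family, were lower at 1 probe set each. Ly6e, a GPI-linked protein with roles in virus entry, read 21836, 22853, 21239.5, 23131 and 22788 in B6-scid and 4335, 4694, 5145, 5933 and 3851 in NOD-scid (-2.23 ± 0.17 (SE), adjusted p 7.6e-08). Ly6d, an epithelial and lymphoid surface protein, read 1399.9, 1271, 1356, 1179.8 and 1417 and 299, 445, 471, 428 and 144 (-1.89 ± 0.29 (SE), adjusted p 0.00116). With Pigv, these were 3 of 24 tested genes of GPI anchors and Ly6 proteins, of which 12 were above 0 with a median of 0.01. The other tested probe set of Ly6d differed by 0.67 and those of Ly6e by -1.19 (adjusted p 0.0646) and -0.29, with none called. The other tested genes that build the anchor were not called, for example Piga (-0.10), Pigm (0.62) and Pigx (-0.17).

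Pdk1, Pfkp and Prdx2 were lower in NOD-scid at 1 probe set each. Pdk1, a kinase that inhibits pyruvate dehydrogenase, read 999.5, 643, 727, 871 and 565 in B6-scid and 348, 206, 294, 211 and 236 in NOD-scid. The difference was -1.44 ± 0.25 (SE), adjusted p 0.004 in limma. Pfkp, a phosphofructokinase, read 75.2 to 199 and 11.7 to 36.1 on its called probe set (-1.72). Its 2 other tested probe sets, with higher mean signals, differed by -0.03 and 0.21 and were not called. With 1 probe set per gene, Fbp1 and Pdk1 were the 2 calls of 38 glucose and glycogen genes, whose median was -0.02. Prdx2, a peroxiredoxin, fell from a range of 503 to 817 to one of 46.4 to 169 on its called probe set (-2.22). Its 3 other tested probe sets differed by -0.19, 0.01 and 0.07 and were not called. The first of these 3 was far brighter, with means of 5098 in B6-scid and 4497 in NOD-scid. Nfe2l2, the master factor of oxidant defence, read 1203 to 2146 and 617 to 1136 (-0.98, adjusted p 0.0196). Gsto1, a glutathione transferase, was close to the threshold (-0.83, adjusted p 0.048). Leaving out any of 5 mice ended the call of Nfe2l2 and any of 14, mice of 9 weeks included, that of Gsto1, at up to 0.0789 and 0.149. The call of Gsto1 was also lost with a pseudocount of 16 (0.0511), without the filter (0.0537), after quantile normalization (0.0524) and with 1 variance prior (0.104).

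The circadian clock list had the lowest median of all 33 lists, -0.60, with 1 call, Wee1, among 19 genes, and 5 of the 19 without overlap between strains (3.38% of all genes). The clock is a loop in which Arntl (Bmal1) with Clock or Npas2 switches on genes with E-boxes, among them Per, Cry, Dbp, Nr1d and Ciart, whose products feed back. The motif CACGTG, an E-box that reads the same on both strands, was searched in the 250 bases upstream of RefSeq starts (GRCm38.p6), of which 6.02% of 32851 windows held it. Of the 16 clock genes in that table, 5 held it (6.86% of all genes did): Tef, Per1, Cry1, Bhlhe41 and Ciart. Per2, Bhlhe40 and Wee1 were not in the table. A match is a string of letters and no evidence of binding. Windows of 3 of the 5 are shown to place the motif, in capitals, in genes whose values follow, each on the minus or plus strand as given and read 5′ to 3′ toward the start.
Ciart, chr3:95882229-95882478, minus strand: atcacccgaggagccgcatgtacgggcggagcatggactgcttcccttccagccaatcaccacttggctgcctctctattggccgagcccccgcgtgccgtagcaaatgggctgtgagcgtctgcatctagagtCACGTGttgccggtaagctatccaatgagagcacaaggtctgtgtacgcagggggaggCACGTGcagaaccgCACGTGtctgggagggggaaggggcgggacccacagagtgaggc
Bhlhe41, chr6:145865421-145865670, minus strand: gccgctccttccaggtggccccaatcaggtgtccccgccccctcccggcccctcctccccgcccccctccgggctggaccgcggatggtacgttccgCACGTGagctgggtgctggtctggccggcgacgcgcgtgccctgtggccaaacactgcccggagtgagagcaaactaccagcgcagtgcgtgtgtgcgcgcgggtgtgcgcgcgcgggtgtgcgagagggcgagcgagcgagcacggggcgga
Per1, chr11:69098699-69098948, plus strand: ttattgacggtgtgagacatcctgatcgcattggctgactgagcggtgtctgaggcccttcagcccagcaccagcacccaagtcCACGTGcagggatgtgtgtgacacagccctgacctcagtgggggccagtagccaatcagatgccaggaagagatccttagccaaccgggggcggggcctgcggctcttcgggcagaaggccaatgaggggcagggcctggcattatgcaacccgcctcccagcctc

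Several genes that the loop switches on had lower values in NOD-scid without a call. Ciart, Per1 and Bhlhe41 are given here, while Tef and Cry1, which also hold the motif, are not. No link between the motif and lower signal can therefore be read from these values. Ciart, with 3 E-boxes in its window, read 1376, 1596, 1307, 1681 and 1947 in B6-scid and 662, 915, 1084, 839 and 1332 in NOD-scid. Only NOD-scid mouse 5 entered the B6-scid range, above B6-scid mouse 3, and the difference of -0.72 ± 0.27 (SE) was not called (adjusted p 0.511). Per1 read 1461, 1054, 962, 985 and 693 and 295, 304, 378, 520.3 and 1465, where NOD-scid mouse 5 was the highest of all 10 and the other 4 were under every B6-scid mouse (means of 1031 ± 277 and 593 ± 496, SD, n = 5 each, adjusted p 0.59 in limma). Bhlhe41 read 753 to 1365 and 464 to 722 without overlap (-0.64, adjusted p 0.641).

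Dbp, a transcription factor driven by the clock, read 916, 627, 1225, 1322 and 855 in B6-scid and 42.9, 130.4, 652, 504 and 695 in NOD-scid. NOD-scid mice 1 and 2 were the lowest, and the difference was -1.64 ± 0.52 (SE), adjusted p 0.304. Arntl, on the other arm of the loop, read 122, 112, 119, 102 and 55.5 and 719.6, 600.4, 239, 159 and 128, so that the same NOD-scid mice 1 and 2 were the highest (1.33 ± 0.39 (SE), adjusted p 0.204). Npas2 was also highest in those 2 mice, at 617, 576, 121, 311 and 242 in NOD-scid. Per2 (-1.32) and Nr1d2 (-0.75) had lower values in every NOD-scid mouse and were not called, while Per3 (-0.05), Nr1d1 (0.04) and Cry2 (0.11) overlapped and were not called. Wee1, a mitotic kinase and clock output, read 363, 484, 671, 466 and 512 and 127, 76.1, 83.7, 222 and 64.9 (-1.93 ± 0.44 (SE), adjusted p 0.0451), a call lost with any of 13 mice left out, mice of 9 weeks included (up to 0.137), with a pseudocount of 16 (0.0618), without the filter (0.0512), after quantile normalization (0.0576) and with 1 variance prior (0.0623). The list's median was -0.16 at 9 weeks and 0.18 in lacrimal gland, and the labels do not state the hour at which glands were taken.

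**Figure D4:**
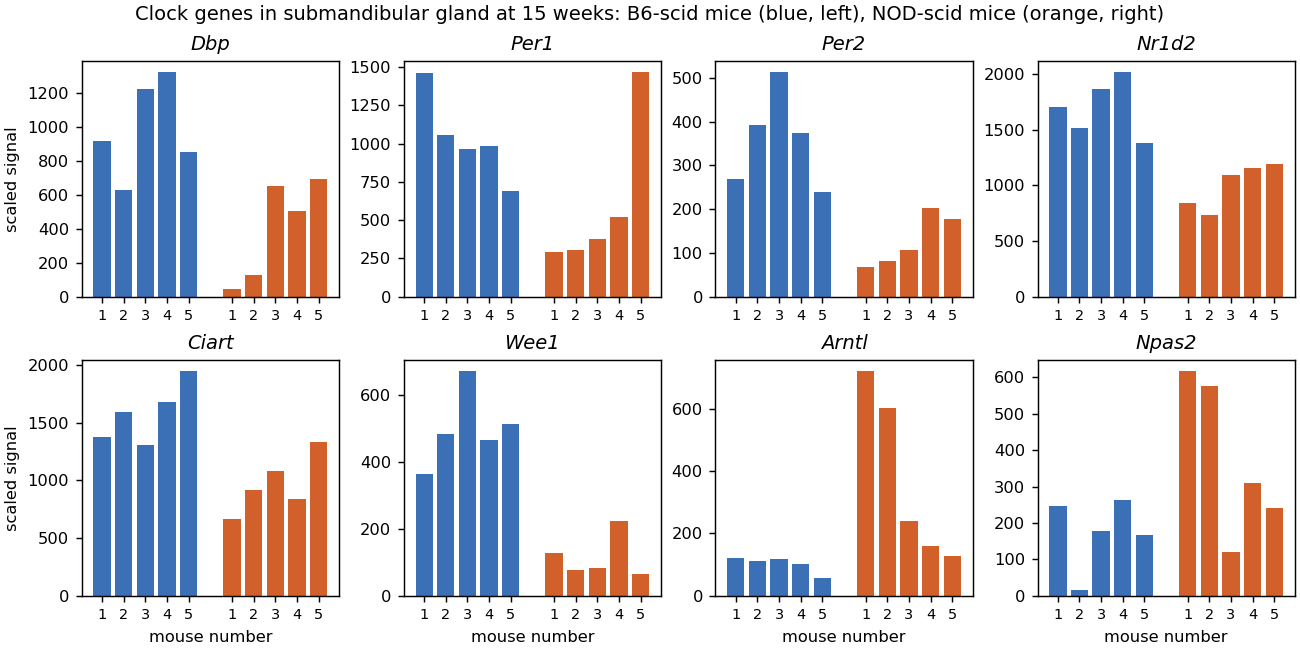
Scaled signal (y axis, from 0) of 8 clock genes in each mouse (x axis, mouse number), B6-scid in blue and NOD-scid in orange. Arntl and Npas2 are highest and Dbp lowest in NOD-scid mice 1 and 2, and the NOD-scid bars of Per2, Nr1d2 and Wee1 lie below all B6-scid bars.

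Most of the probe sets called at 15 weeks were also called at 9 weeks. In the same fit of 20 glands, 359 probe sets were called at 9 weeks (1.12%), and 126 were called at both ages in the same direction, 66% of the 15-week and 35.1% of the 9-week calls, with 0 in opposite directions. The comparisons used different mice. Of the 191 called at 15 weeks, 183 had the same sign at 9 weeks, and 127 had no overlap between the 9-week mice in that direction. The shares of all tested probe sets with these traits at 9 weeks were not computed. At 15 weeks 2.83% of them had no overlap, in either direction. The 12 largest increases were between 1.46 (Timmdc1) and 7.12 (Mucl1) at 9 weeks, and the 12 largest decreases between -3.94 (Rpgrip1) and -1.29 (Ctsc).

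The other 65 calls of 15 weeks were not called at 9 weeks, and 8 had the opposite sign. Egfl6, a secreted matrix-binding protein, read 231, 456, 262, 276 and 148 in B6-scid and 42.5, 31.6, 33.6, 43.1 and 51.6 in NOD-scid at 15 weeks (-2.01 ± 0.35 (SE)), against 0.04 ± 0.35 (SE) at 9 weeks. Gna14, a G protein subunit, differed by -1.82 at 15 weeks and -0.01 at 9 weeks, Wee1 by -1.93 and 0.03, and Trim16, a stress-induced ubiquitin ligase, by -2.14 and -0.53. A change with age was not called for any probe set: the test of the difference between ages gave 0 of 32136 (0%) in limma, with a smallest adjusted p of 0.168 and 1605 at an unadjusted p under 0.05. With NOD-scid mouse 3 of 15 weeks or NOD-scid mouse 2 of 9 weeks left out, 1 probe set was called. Arrays of 9 weeks were less alike within a group (mean correlation 0.752 to 0.917) than those of 15 weeks, and their Actb ratio was 2.45 ± 1.16 (SD, n = 5) in B6-scid and 2.17 ± 0.405 in NOD-scid. The 7 pancreas markers summed to 4455 to 16794 in B6-scid and 11065 to 173104 in NOD-scid at 9 weeks. The part of these in the age comparison was not tested.

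**Figure D5:**
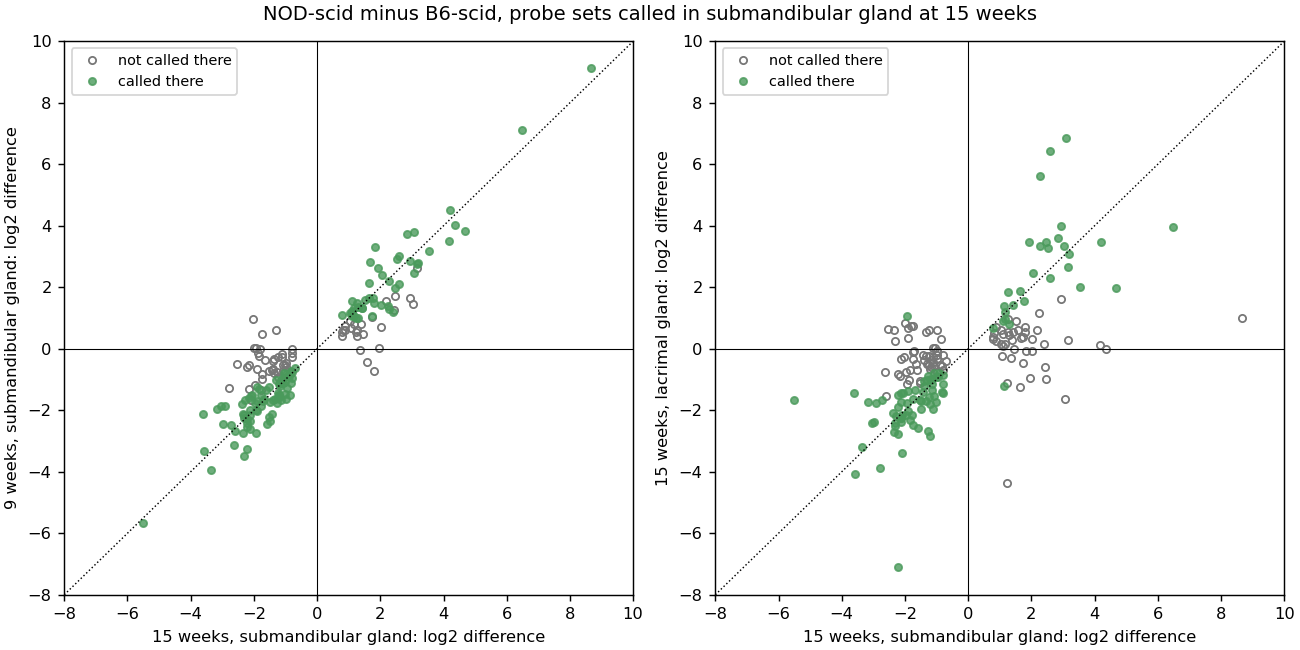
Log2 differences (NOD-scid minus B6-scid) of the 191 probe sets called in submandibular gland at 15 weeks (x axis) against those at 9 weeks (left, y axis) and in lacrimal gland at 15 weeks (right, y axis). Filled points were called there as well. At 9 weeks 183 points share the sign and cluster along the dotted line of equality, and in lacrimal gland 161 do, with more spread.

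The lacrimal gland shared part of the difference and departed from it in named genes. Of the 191 calls, 161 had the same sign in lacrimal gland, 93 were called there in the same direction (2.32% of 31441 probe sets were called in that gland) and 2 in the opposite one. The strain difference itself differed between the glands for 103 of 31441 probe sets (0.328%), 55 more positive in submandibular gland and 48 more negative, and 27 of the 191 were among the 103. Whether both glands of a mouse number came from 1 mouse is not stated. A block on the mouse number within strain gave 43 in place of 103, and leaving out NOD-scid lacrimal mouse 3 gave 69.

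St6galnac1 and Gcnt1 differed between the glands, while the gland difference was not called for St6galnac2 (adjusted p 0.291) or St3gal4 (0.341). St6galnac1 was 76 ± 27.1 in NOD-scid (SD, n = 4) and 108 ± 131 in B6-scid lacrimal gland (SD, n = 5), a difference of -0.02 ± 0.42 (SE), where the submandibular difference was larger by 4.37 ± 0.57 (SE), adjusted p 7.4e-04. Gcnt1 differed by -1.65 in lacrimal gland on its first probe set and by 0.15 on its second, against which the submandibular differences were larger by 4.72 and 2.25 (adjusted p 0.0108 and 6.6e-04). On its last called probe set the gland difference was not called (0.195). Fads2b, of the fatty acid desaturase family, was higher in NOD-scid submandibular gland (1.65), with a difference of -1.25 in lacrimal gland that was not called, and the glands differed by 2.90, adjusted p 0.00531. Its submandibular call (adjusted p 0.0247) was lost with any of 7 mice of 15 weeks left out, at up to 0.0857 without NOD-scid mouse 2, and in 1 fit of all 39 samples (0.0873).

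The lacrimal glands of B6-scid also carried parotid transcripts, unevenly. Bpifa2 was 85934 ± 123221 in B6-scid (SD, n = 5) and 72.5 ± 2.41 in NOD-scid lacrimal gland (SD, n = 4), and Amy1, salivary amylase, was 73368 ± 100383 and 33 ± 25.4. The 4 parotid markers summed to 45303 to 662126 in B6-scid and 21679.9 to 36455 in NOD-scid, where Bpifa2 and Amy1 had means under 100. Gcnt1 was uneven in the B6-scid lacrimal glands as well, at 1443 ± 1883 on its first probe set, and its lacrimal difference was not called (adjusted p 0.173). The part of these transcripts in the gland differences was not tested.

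Agr2, Ly6e and Egfl6 also differed between glands. Agr2 was lower in NOD-scid submandibular gland and higher in NOD-scid lacrimal gland, at 17398 ± 2193 against 8254 ± 747 (1.07 ± 0.22 (SE)), and the glands differed by -3.00, adjusted p 4.7e-05. Ly6e was lower in both, but its lacrimal difference of -7.10 was the larger by 4.87 (adjusted p 1.9e-05), with lacrimal signals of 320.0 ± 183 in NOD-scid and 43603 ± 13504 in B6-scid. Egfl6 differed by -2.84 between glands (adjusted p 0.00468). Fbp1, Pam, Pafah2, Rpgrip1, Agpat5 and Zbtb20 were called in lacrimal gland in the same direction as in submandibular gland, at 3.47, 3.59, 2.66, -3.18, -2.41 and -2.08.

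Prkdc, which carries the scid mutation in both strains, read 60.6, 25.3, 32.3, 33.4 and 50.6 in B6-scid and 42.2, 145, 53, 68.3 and 30.1 in NOD-scid, low in both (0.38 ± 0.36 (SE), adjusted p 0.999). Hc, the complement C5 gene that NOD mice lack in functional form, had mean signals under 100 in both strains and did not enter the test.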

How the data were processed

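RNA of each gland was read once on each of the 3 array designs. The deposited values are MAS5 signal intensities on a linear scale, per the submitters' processing notes and the files, with a like 2% trimmed mean on every array. The probe-level data were not used here, so MAS5's own background step cannot be varied.

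Each array was rescaled to a 2% trimmed mean of 500, and log2(signal + 32) was taken. Probe sets at 100 or more on at least 4 arrays were tested with limma 3.58.1 in R 4.3.3 (lmFit and eBayes per design, two-sided, Benjamini-Hochberg over the 3 designs, threshold 0.05). The 20 submandibular samples formed 1 fit of strain by age, with 16 residual degrees of freedom, and the 19 samples of 15 weeks another of strain by gland. The number of arrays limits the precision. Replicates were separate mice, per the labels. Tested on simulated data of 32136 probe sets for the 15-week comparison, the fit recovered 23% of changes of 1 and 58% of changes of 2 on the log2 scale, with 2 false calls.

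Genes were named from the platform annotation. The text names the 12 largest increases and decreases among called probe sets with 1 symbol and no overlap, up to 4 members of smallest p of each list with a call, up to 5 called differences each way from the other 2 comparisons, and a fixed set of check genes. Other names were picked after their values were seen. The members and lists were chosen with earlier results of these data known. A list used 1 probe set per gene, from design A before B before C and within a design that of highest mean signal over the 20 samples.

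Alternatives covered the pseudocount, the filter, quantile normalization, the Actb 3' to 5' ratio as a covariate, a replicate block, the samples in the fit, a variance trend, and each mouse left out. A single variance prior over the designs, 9-week samples of highest Actb ratio left out, and a mouse number block within strain were added after seeing the data.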

Additional observations from a re-analysis of the deposited data

Results flagged for a closer look

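In 17 of 216 checks of a named probe set in a group of 5 mice, 1 mouse lay far from the others by Dixon's test, and chance gives about 1 in 20 such results. No explanation was tested for these.

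Among NOD-scid mice, mouse 5 was low for Arg1 (20.8, others 133 to 175), Klk1b8 on its family probe set (13531, others 24079.8 to 26476) and Smgc (20306, others 52495 to 64191), and high for Obp1a (169, others 4.5 to 28.6). Mouse 3 was high for Pigv (161, others 15.5 to 37.2), the nucleic acid sensor Tlr7 (148, others 43.6 to 67.6) and the glucose carrier Slc2a1 (161, others 39.5 to 60.7). Mouse 1 was high for the proteasome subunit Psmd10 (194, others 20.5 to 54.1), and mouse 4 was low for Hsd17b4, an enzyme of peroxisomal fatty acid oxidation (917, others 1025 to 1058).

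Among B6-scid mice, mouse 1 was high for Obp1a (13136, others 141 to 574), Kcnn4 (7697, others 5513 to 5941) and Hc (127, others 13.6 to 19.9). Mouse 5 was low for the protease Ctsl (2112, others 3098 to 3323) and for Pfkp (75.2, others 169 to 199). Mouse 3 was low for H2-Eb1 (1949, others 2546 to 2715) and the complement gene C2 (203, others 305 to 325). Mouse 2 was high for Actb (5752, others 1459 to 2489).

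The strain difference differed between submandibular and lacrimal gland by limma's interaction test, adjusted over 31441 probe sets, for 15 named probe sets, 8 more positive and 7 more negative in submandibular gland. It was more positive for Ly6e (4.87, adjusted p 1.9e-05), Gcnt1 on 2 probe sets (4.72, 0.0108, and 2.25, 6.6e-04), St6galnac1 (4.37, 7.4e-04), Fads2b (2.90, 0.00531), Wdr37 (2.86, 0.00497), Lpl (2.32, 0.0439) and Fxyd3 (1.65, 0.00231). It was more negative for Notch4 (-4.24, 1.3e-04), BC018473 (-3.83, 0.00285), Agr2 (-3.00, 4.7e-05), Psmd10 (-2.99, 0.00239), Egfl6 (-2.84, 0.00468), Ly6d (-2.55, 0.0223) and Pigv (-2.17, 0.0439). The parotid transcripts of the B6-scid lacrimal glands stand beside these values, and their part was not tested.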

How the results depend on the processing

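At 15 weeks the count of called probe sets was 191, from 147 to 177 with 1 mouse of that age left out, and from 143 to 259 under the other settings. With the replicate number as a block it was 143. Same-numbered mice of the strains correlated by -0.011 to 0.076 and differently numbered ones by -0.058 to 0.07. These ranges overlap, and so few pairs cannot settle whether the numbers pair the mice. The strain by age count was 0 in every other setting, and with 1 mouse left out ranged from 0 to 1. The strain by gland count of 103 became 39 with a replicate block and 43 with the mouse number as a block within strain, and was 69 to 115 with 1 mouse left out. Without NOD-scid lacrimal mouse 3 it was 69. Of 53 called probe sets among the named ones, 36 kept the call in every alternative, 17 lost it in at least 1, of which 10 lost it under the block, and 0 changed sign. The adjusted p under the block was 0.0694 for Timmdc1, 0.0854 for 1600014C10Rik, 0.0517 for St3gal4, 0.12 for Klk1b8 on probe set 104496_i_at, 0.141 for Ifih1, 0.082 for Fcgr1, 0.0872 for Nfe2l2, 0.0651 for Gsto1, 0.126 for Gadd45b and 0.0507 for Egfl6. Low signals, for which the pseudocount shrinks the difference, limit the size of any change from near background.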
